A study of Sus scrofa with 42 samples.

Results

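The net change of the transcriptome in parthenogenetic pig embryos was measured between 1-cell parthenotes and blastomeres of an 8-cell parthenote. All libraries with these 2 labels were taken, which gave 6 of the 42 libraries of the study, 3 of 1-cell and 3 of 8-cell stage. The study sequenced the RNA of single zygotes and blastomeres of the pig, after parthenogenetic activation (PA) or fertilization in vitro (IVF), at the 1-, 2-, 4- and 8-cell stages, from 20 embryos in 8 groups of method and stage. PA 1-cell libraries came from 3 parthenotes collected 19 h after the electric pulse. PA 8-cell libraries came from 1 parthenote, whose blastomeres 1-1, 1-2 and 1-4 were collected at 72 h. In the comparison group, IVF 1-cell zygotes (3 libraries) and 3 blastomeres of 1 IVF 8-cell embryo were collected at the same hours, counted from when sperm and eggs were parted. All embryos came from oocytes of gilt ovaries collected at a slaughterhouse and matured in culture. PA oocytes received direct electric pulses and then 6-dimethylaminopurine with cytochalasin B, and no sperm, so that they held maternal genomes only. Cells were separated with trypsin after the zona pellucida, the coat of the egg, had been removed. The labels give no strain, and nothing states that oocytes of different embryos came from different gilts, so p-values measure the spread between these embryos and no more. The 8-cell stage rests on 1 embryo, and its blastomeres are parts of it and not replicates. In the fit its spread was borrowed from the other groups.

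A mature oocyte stores mRNA that is made during its growth and is used while the genome is silent. After activation this store is broken down, and transcription from the genome of the embryo takes over, which in pigs happens mainly during the third cell cycle. A parthenote goes through these steps without a paternal genome, and such embryos do not develop to term. The question asked of the 1-cell and 8-cell libraries was which maternal transcripts were kept, which were lost and which were new over the whole of this interval.

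Expression is given as FPKM (fragments per length of transcript, scaled to the reads mapped in the library) as the authors deposited it, for 15351 genes. FPKM are shares of the RNA sequenced from a cell. A cell of the 8-cell stage is much smaller than a 1-cell embryo, so less of a transcript in the embryo, less RNA in the cell and a larger share of other transcripts cannot be told apart. Between 12984833 and 15923147 reads on genes lay behind the PA 1-cell libraries, and 19518553, 9715964 and 14113766 behind blastomeres 1-1, 1-2 and 1-4. Genes above 0 FPKM numbered 8301, 7932 and 8342 in the 1-cell embryos, against 5656, 5476 and 3481 in the blastomeres, so that the lowest number was not in the shallowest library. Genes at 5 FPKM or more numbered 2594 to 2792 at 1-cell and 1151 to 1715 at 8-cell stage. Transcripts of the mitochondrial genome held 13.1% to 14.1% of the summed FPKM at 1-cell and 42.6% to 52.9% at 8-cell stage. Over all 15351 genes, Pearson's r of log2(FPKM + 1) was 0.847 to 0.853 between 1-cell embryos, 0.481 to 0.494 between sister blastomeres of the 8-cell embryo and 0.336 to 0.409 between the stages. Of the maternal markers, BTG4, BMP15 and ZP4 were at 79.0 FPKM or more in every 1-cell embryo. OOEP was at 3.81 to 16.1 FPKM there, while ZP3 and ZAR1 were at 0 in at least 1 of the 3. Of 10 markers of cumulus and granulosa cells, the cells around the egg, LUM, VIM, FST, TNFAIP6 and INHBA were at 0 in all 6 libraries, and the list summed to 10.3 to 14.9 FPKM at 1-cell and 0.0154 to 100 FPKM at 8-cell stage. Of its other members, VCAN was at 5.06 to 9.14 FPKM in the 1-cell embryos. STAR, which overlaps ASH2L on the other strand, was at 4.18 to 5.92 FPKM there, and COL1A2 and CYP19A1 at most at 1.07 and 1.04 FPKM. The highest sum was in blastomere 1-4, which held 87.5 FPKM of DCN (decorin, an extracellular matrix protein) where the other 5 libraries were at 0. VCAN was also high in 1-4, at 12.6 FPKM against at most 0.0131 FPKM in its sisters, while STAR was at most at 0.0175 FPKM in the blastomeres. DCN was the 1 gene of this list that was called. Its part in the other results was not tested. Of 3 markers of sperm 1 was tested and not called, and its list reached 16.6 FPKM in 1 PA 1-cell embryo and at most 0.0145 FPKM at 8-cell stage. No marker of blood cells passed the filter on low values.

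A gene was taken as held at 1-cell when it had at least 5 FPKM in each of the 3 PA 1-cell embryos, which was true of 1754 genes. Of these, 695 (39.6%) were lost, with under 1 FPKM in each of the 3 blastomeres. Another 206 (11.7%) persisted at 5 FPKM or more in all 6 libraries, and 853 (48.6%) lay between. A further 69 genes were new, with under 1 FPKM in each 1-cell embryo and at least 5 FPKM in each blastomere. These classes are read from the values and are not a test. A persisting gene is one present at both stages, so maternal RNA that was kept and RNA newly made by the embryo cannot be told apart in it. At their edges, UBXN4 was the lost gene with the highest value (0.992 FPKM in blastomere 1-1) and UTP11 just missed the class (1.01 FPKM). MIER3 was the lowest persisting gene (5.11 FPKM) and UBB just missed it (4.97 FPKM), while HUWE1 was the lowest new gene (5.21 FPKM) and MCAT just missed it (4.99 FPKM).

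The share of genes that were lost went down with the level at 1-cell. Of 905 genes with a 1-cell mean of 5 to 20 FPKM, 47.4% were lost and 6.08% persisted. Of 684 genes at 20 to 100 FPKM, 35.4% were lost and 12.9% persisted. Of 165 genes at 100 FPKM and more, 14.5% were lost and 38.2% persisted. As the classes are cut at fixed FPKM, a highly expressed gene must fall further to be lost. Of the FPKM of nuclear genes, the lost genes held 18.2% to 19.2% in the 1-cell embryos and 0.0217% to 0.0499% in the blastomeres. The share of the persisting nuclear genes was 21.1% to 22.3% at 1-cell and 35.5% to 40.9% at 8-cell stage. The new genes went from at most 0.0157% to between 4.49% and 5.02%.

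**Figure D1:**
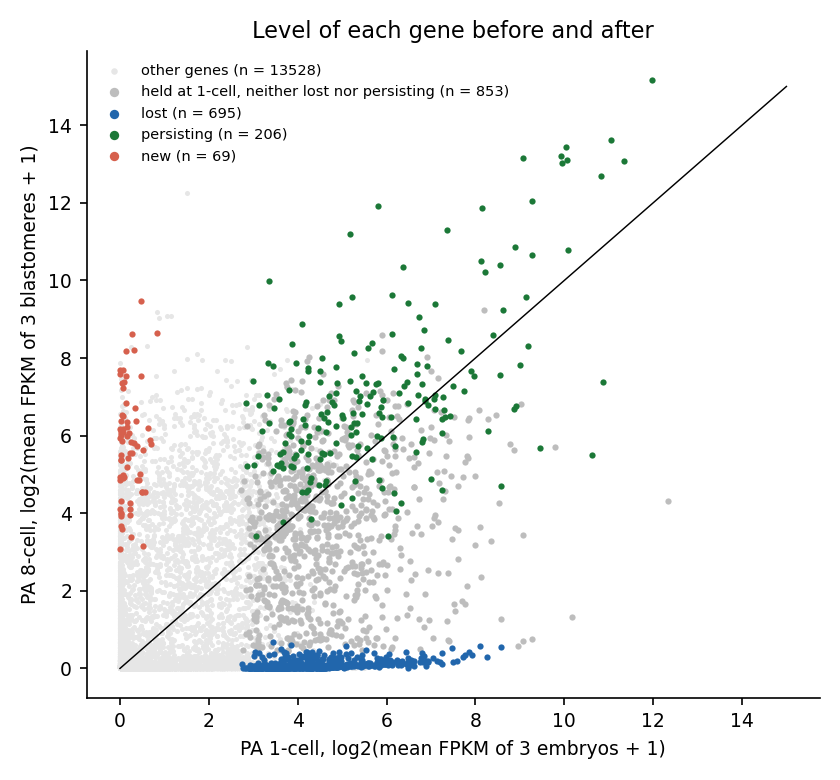
Mean level of each gene in the 3 PA 1-cell embryos (horizontal axis) and in the 3 blastomeres of the PA 8-cell embryo (vertical axis), as log2(mean FPKM + 1), with the line of equal level. Lost genes (blue, n = 695) lie along the bottom over a wide range of 1-cell levels, new genes (red, n = 69) along the left edge, and persisting genes (green, n = 206) lie on both sides of the line.

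In the fit over all groups (limma, 8116 genes tested, called at an adjusted p under 0.05 and a fold change of at least 2), 615 genes (7.58% of those tested) rose and 504 (6.21%) fell, while 2145 had an unadjusted p under 0.05. The median change over all genes tested was -0.58 on the scale of log2(FPKM + 1), and scaling by median ratios moved it to -0.0987. That scaling also moved the split of calls, to 1727 higher and 112 lower, so the counts in each direction depend on it. It divided the values by 2.57 to 2.88 in the 1-cell embryos. In blastomeres 1-1, 1-2 and 1-4 it divided them by 0.104, 0.138 and 1.89. Blastomeres 1-1 and 1-2 were thus raised far more than 1-4. Which scaling is nearer to the change in the embryo was not tested. The median standard error was 1.15, so most changes of less than 2 log2 units were within the error. Among the lost genes 354 of 695 were called lower, among the new genes 65 of 69 were called higher, and among the persisting genes 24 were called higher and 5 lower. These calls share their values with the classes and add no independent evidence to them.

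Among the 8 lost genes with the largest falls of those that have a symbol were KPNA7, OOSP2 and ZP4, which are known from the oocyte. KPNA7, an oocyte importin alpha that carries proteins into the nucleus, had 340, 468 and 337 FPKM in the 3 PA 1-cell embryos and 0.593, 0.82 and 0 FPKM in the blastomeres. The 1-cell values were all far above the 8-cell values, and its change was -8.01 ± 0.722 (log2, SE; limma adjusted p = 1.47e-06). The oocyte secreted protein gene OOSP2 had 236, 193 and 263 FPKM at 1-cell and at most 0.626 FPKM at 8-cell stage (change -7.41, limma adjusted p = 0.000507). ZP4, a glycoprotein of the zona pellucida, had 347, 109 and 79.0 FPKM at 1-cell, a wide range. At 8-cell stage it had 0.203, 0.187 and 0 FPKM, without overlap, as the class requires (-7.01 ± 1.14, limma adjusted p = 0.000419). TRIM36, a ubiquitin ligase, had 265, 151 and 494 FPKM at 1-cell and at most 0.421 FPKM at 8-cell stage (-7.78). The actin-severing protein gene DSTN had 283, 321 and 217 FPKM and then at most 0.838 FPKM (-7.52). EIF4E3, a cap-binding protein of the eIF4E family, had 82.6, 161 and 196 FPKM and then at most 0.185 FPKM (-6.96). PSPH, the last enzyme of serine synthesis, had 142, 156 and 120 FPKM and then at most 0.243 FPKM (-6.92). ORMDL1, a regulator of sphingolipid synthesis that overlaps PMS1 on the other strand, had 138, 238 and 250 FPKM and then at most 0.483 FPKM (-7.36). In none of these 8 genes did a blastomere reach 1 FPKM, as the class requires. Over all 695 lost genes, the median level left was 0.175% of the 1-cell mean in blastomere 1-1, 0.264% in 1-2 and 0 in 1-4. In 1-4 565 of them were at 0, against 69 in 1-1 and 82 in 1-2, and 1-4 was also the library with the fewest genes above 0.

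The regions before the starts of KPNA7 and ZP4 are shown because both are lost oocyte genes whose proximal region holds the letters of a TATA box (TATAAA, searched on both strands). The sequences are the 250 bases before the RefSeq start, read from Sscrofa11.1 on the strand of the gene, with searched motifs in capitals (TTTATA is TATAAA on the other strand). KPNA7 is at chr3:6201283-6201532 on the minus strand and ZP4 at chr14:53576888-53577137 on the plus strand.
KPNA7: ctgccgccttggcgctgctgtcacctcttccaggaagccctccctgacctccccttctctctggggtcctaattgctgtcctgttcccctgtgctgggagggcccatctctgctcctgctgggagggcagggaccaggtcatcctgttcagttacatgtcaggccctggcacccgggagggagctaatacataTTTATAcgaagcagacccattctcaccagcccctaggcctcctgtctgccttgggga
ZP4: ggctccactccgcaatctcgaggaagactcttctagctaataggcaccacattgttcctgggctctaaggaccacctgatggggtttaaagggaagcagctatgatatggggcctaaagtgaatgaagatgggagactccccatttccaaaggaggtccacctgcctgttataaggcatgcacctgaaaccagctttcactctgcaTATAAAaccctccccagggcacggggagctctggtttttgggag
In windows from 250 bases before to 50 bases after the RefSeq start, TATAAA was found for 7.52% of the lost genes, 5.85% of the persisting and 10.7% of the new genes with a window, against 7.86% of all genes tested and 8.5% of all windows. The lost genes thus held it about as often as all genes tested.

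Persisting transcripts with the highest lowest value over the 6 libraries included genes of signalling and the cytoskeleton. YWHAE, the 14-3-3 epsilon protein that binds phosphorylated partners, had 920, 1037 and 1303 FPKM at 1-cell and 1712, 2060 and 1496 FPKM at 8-cell stage. Its blastomeres were all above the 1-cell embryos, but the change of 0.71 ± 0.73 (log2, SE) was within the error (limma adjusted p = 0.581). ARMC1, an armadillo repeat protein of mitochondria, had 514, 519 and 651 FPKM and then 580, 948 and 734 FPKM, with overlap (0.43 ± 0.49). NRAS, a small GTPase, had 319, 328 and 358 FPKM and then 537, 349 and 264 FPKM, so the blastomeres lay on both sides of the 1-cell embryos (0.20 ± 0.58). Reads on NRAS may be shared with other transcripts, so its level is uncertain. SEPTIN11, a filament-forming GTPase, had 455, 460 and 832 FPKM and then 236, 554 and 158 FPKM (-0.82 ± 0.76). It was not called, and its value was positive under median ratio scaling. KLHL15, an adaptor of a cullin ubiquitin ligase, had 126, 228 and 144 FPKM and then 504, 417 and 131 FPKM (1.12 ± 0.73, not called). Of these 6 genes, only CDR1, a cerebellar antigen gene, was called: it had 178, 390 and 269 FPKM at 1-cell and 868, 2552 and 938 FPKM at 8-cell stage, without overlap (2.45 ± 0.76, limma adjusted p = 0.0385).

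Among the 191 persisting nuclear genes, the median change was 1.38 log2 units and 68 changed by less than 1, while 15 rose and 5 fell. The 5 that fell were named after their values were seen. DNMT1, the maintenance DNA methyltransferase, had 2034, 1591 and 1079 FPKM at 1-cell and 16.9, 24.9 and 91.3 FPKM at 8-cell stage, so that it stayed present at a much lower level (-5.06 ± 0.53, limma adjusted p = 5.33e-06). TNPO1, a nuclear import receptor, had 777, 664 and 668 FPKM and then 54.0, 67.1 and 28.9 FPKM (-3.78 ± 0.63, limma adjusted p = 0.000549). SRPK1, a kinase of splicing factors, had 430, 318 and 385 FPKM and then 35.1, 7.73 and 32.0 FPKM (-3.86 ± 0.83). EIF5B, which joins the ribosomal subunits at the start codon, had 98.4, 158 and 124 FPKM and then 7.67, 6.54 and 71.9 FPKM (-2.08 ± 0.64), and KTN1 (kinectin, a membrane protein of the endoplasmic reticulum) had 148, 142 and 165 FPKM and then 55.3, 7.04 and 6.76 FPKM (-2.66 ± 0.76). In all 5 the blastomeres were below the 1-cell embryos, but so they were in all 504 genes called lower and in 41.4% of all genes tested. The values of TNPO1, SRPK1, EIF5B and KTN1 were positive under median ratio scaling. Of the 15 persisting nuclear genes that rose, CDV3, a cytosolic protein of unclear role, reached the highest level, from 60.2, 50.9 and 53.3 FPKM to 1981, 2382 and 7306 FPKM (6.13 ± 1.496, limma adjusted p = 0.0102). SLC16A1, a transporter of lactate and pyruvate, went from 13.5, 15.02 and 10.1 FPKM to 148, 149 and 138 FPKM with little spread between sisters (3.41 ± 0.94, limma adjusted p = 0.0214).

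The 8 new genes with the largest rises of those that have a symbol held a zinc finger gene, a poly(A)-binding protein gene, a ribosomal protein gene and 2 transporters. ZIM3, a zinc finger repressor, had at most 0.493 FPKM at 1-cell and 1446, 641 and 32.6 FPKM in blastomeres 1-1, 1-2 and 1-4 (8.99 ± 2.11, limma adjusted p = 0.00834). TPT1, the translationally controlled tumour protein, had 0.105, 0.301 and 0.207 FPKM at 1-cell and 318, 312 and 541 FPKM at 8-cell stage, with sisters close to each other (8.35 ± 1.83, limma adjusted p = 0.00514). PABPC5, an X-linked poly(A)-binding protein, had at most 0.119 FPKM at 1-cell and 514, 313 and 46.9 FPKM at 8-cell stage (8.05 ± 0.55, limma adjusted p = 6.95e-08). As their class requires, all 3 genes were above every 1-cell embryo in every blastomere, although ZIM3 and PABPC5 differed widely between sisters. RPS3A, a protein of the small ribosomal subunit, had at most 0.398 FPKM and then 30.2, 644 and 215 FPKM (7.91 ± 1.52). SLC31A1, the main copper importer, had 0.786, 0.58 and 0.997 FPKM and then 280, 471 and 457 FPKM (7.83 ± 1.06). It overlaps CDC26 on the other strand, and as the strandedness of the libraries is not stated their reads cannot be told apart. SLC34A2, a sodium and phosphate transporter, had at most 0.0509 FPKM and then 230, 51.8 and 336 FPKM (7.63 ± 1.45). SDS, which breaks down serine, had at most 0.164 FPKM and then 317, 23.6 and 212 FPKM (7.41 ± 2.02), and TTYH2, a membrane protein of the tweety family, had at most 0.0437 FPKM and then 145, 249 and 99.1 FPKM (7.33 ± 0.82). Among transcription factors, NANOG, a pluripotency factor, was new: it was at most at 0.108 FPKM at 1-cell and at 79.2, 47.6 and 75.1 FPKM in the blastomeres (6.02 ± 1.72, limma adjusted p = 0.0261).

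**Figure D2:**
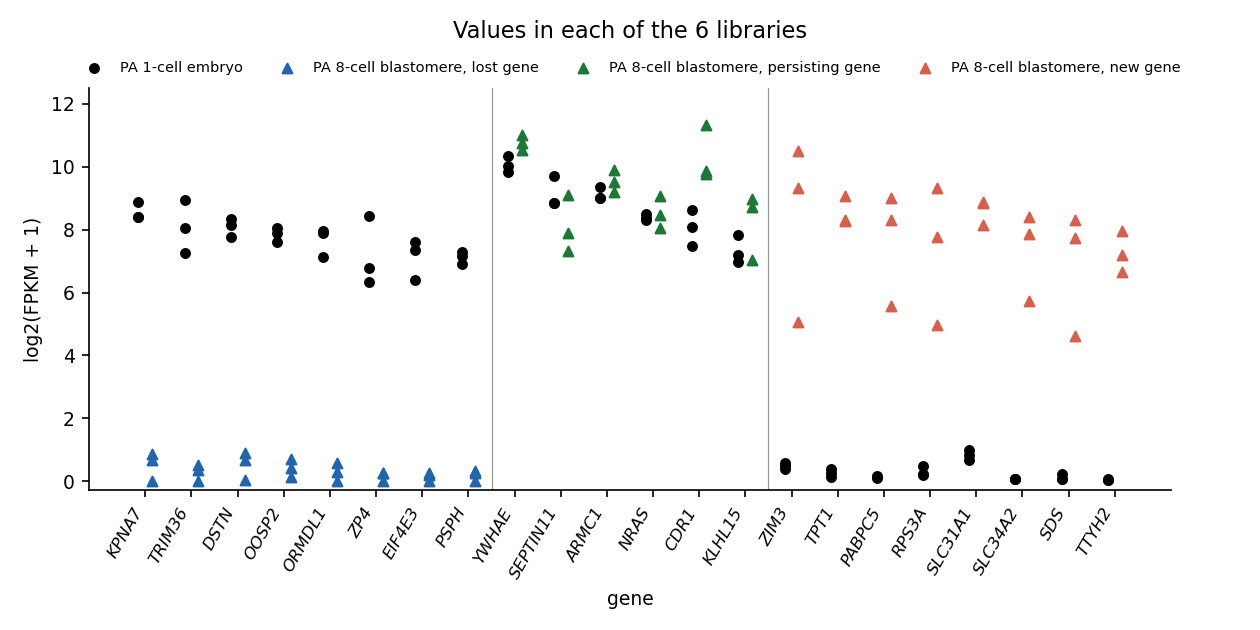
Values in each library, as log2(FPKM + 1), of the 8 lost, 6 persisting and 8 new genes named by rule (left to right between the vertical lines), with circles for the 3 PA 1-cell embryos and triangles for the 3 blastomeres of the PA 8-cell embryo. Lost and new genes do not overlap between stages, which their classes require, while the new genes ZIM3, PABPC5, RPS3A, SLC34A2 and SDS each have 1 blastomere well below its sisters.

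The regions before 4 new genes, TPT1, COX7A2, MRPL51 and EMG1, are shown because each holds CCGGAAG, the core letters that ETS family factors bind. They were read in the same way, with the motifs found on either strand in capitals (the search also took in CCAAT, the box of that name, and GGGCGG, the GC box), so that CTTCCGG is CCGGAAG and CCGCCC is GGGCGG on the other strand. TPT1 is at chr11:21929044-21929293 on the plus strand, COX7A2 (a subunit of respiratory complex IV) at chr1:90696496-90696745 on the plus strand, MRPL51 (a mitochondrial ribosomal protein) at chr5:64167168-64167417 on the plus strand and EMG1 (an enzyme of ribosome assembly) at chr5:63751470-63751719 on the minus strand.
TPT1: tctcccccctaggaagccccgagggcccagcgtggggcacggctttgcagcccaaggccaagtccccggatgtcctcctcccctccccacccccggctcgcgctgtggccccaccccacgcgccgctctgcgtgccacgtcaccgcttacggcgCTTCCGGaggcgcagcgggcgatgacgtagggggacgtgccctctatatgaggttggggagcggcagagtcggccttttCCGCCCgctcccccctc
COX7A2: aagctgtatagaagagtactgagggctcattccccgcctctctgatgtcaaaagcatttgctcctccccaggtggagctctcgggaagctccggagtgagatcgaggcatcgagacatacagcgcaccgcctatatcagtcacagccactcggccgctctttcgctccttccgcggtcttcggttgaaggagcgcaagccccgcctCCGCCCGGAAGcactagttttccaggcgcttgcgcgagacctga
MRPL51: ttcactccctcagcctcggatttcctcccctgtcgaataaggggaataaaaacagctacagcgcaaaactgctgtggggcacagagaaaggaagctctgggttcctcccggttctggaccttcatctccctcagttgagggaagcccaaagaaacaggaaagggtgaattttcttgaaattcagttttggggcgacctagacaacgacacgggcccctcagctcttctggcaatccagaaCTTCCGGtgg
EMG1: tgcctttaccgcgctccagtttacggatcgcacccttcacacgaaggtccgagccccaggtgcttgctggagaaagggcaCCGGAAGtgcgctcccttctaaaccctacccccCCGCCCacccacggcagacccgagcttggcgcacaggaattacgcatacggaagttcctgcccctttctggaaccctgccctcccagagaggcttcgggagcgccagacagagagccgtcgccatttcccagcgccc
The match began 96, 40, 10 and 170 bases before the start in TPT1, COX7A2, MRPL51 and EMG1, and in COX7A2 it overlapped a GGGCGG match. These starts are those of RefSeq. The gene model of the files starts 516 bases upstream of it in MRPL51, so that the region and match shown lie inside the gene as counted. It starts 73 and 138 bases upstream in TPT1 and EMG1, where the match lies 23 and 32 bases before it, and 5 bases downstream in COX7A2. In windows from 250 bases before to 50 bases after the start, CCGGAAG was found for 19 of 56 new genes with a window (33.9%), against 12.3% of the lost, 17.5% of the persisting, 16.9% of all genes tested and 14.0% of all windows. It was found for 34.9% of the cytosolic ribosomal protein genes, and for 12 of 40 new genes (30.0%) without these. Nuclear genes called higher held it in 25.9% of cases. The share was 26.2% where all 3 blastomeres were above every 1-cell embryo and 28.0% where 1 was, so the motif was not particular to the new genes. GGGCGG and CCAAT were found for 67.9% and 37.5% of the new genes, against 62.7% and 37.7% of all genes tested. EMG1 overlaps LPCAT3 and MRPL51 overlaps NCAPD2 on the other strand, so that the values of all 4 are uncertain. These 4 regions were chosen after the search.

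New genes had shorter transcripts at the median. By the RefSeq models matched to the files' genes (56 of 69 new, 622 of 695 lost and 170 of 191 persisting nuclear genes), the median transcript was 1550 bases long for new genes, 3755 for lost, 4056 for persisting and 3576 for all genes tested. The median 3′ UTR, the untranslated end that carries signals of stability, was 362, 1435, 1697 and 1216 bases long, respectively. The hexamer TTTTAT is the core of the cytoplasmic polyadenylation element of oocyte mRNAs. It was in the 3′ UTR of 32.7% of the new, 75.5% of the lost, 80.8% of the persisting and 66.2% of all genes tested. Whether this share follows the length was not tested. Outside the ribosomal protein list, the new genes had a median transcript of 2151 bases and a 3′ UTR of 675 bases. Lost and persisting genes were thus alike in length, and the lost genes had a higher median share of G and C at the third codon position (49.5% against 43.3%), below the 53.4% of all genes tested.

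Gene lists were read against the 7.58% of tested genes that rose, the 6.21% that fell and the median change of -0.58. Of 60 cytosolic ribosomal protein genes tested, 41 rose and none fell, with a median change of 3.43, and 36 were above every 1-cell embryo in all 3 blastomeres. The 63 genes of this list summed to 134 to 178 FPKM at 1-cell and to 2660 to 4340 FPKM at 8-cell stage. RPS16, of the small subunit, had 0.261, 0.235 and 3.10 FPKM at 1-cell and 379, 782 and 462 FPKM at 8-cell stage (8.19 ± 1.73, limma adjusted p = 0.0038), and RPS9 had at most 1.73 FPKM and then 133, 342 and 84.2 FPKM (6.84 ± 1.83). RPL7L1, a factor of the large subunit, was at 196 and 165 FPKM in 2 sisters and at 1.01 FPKM in 1-4 (6.24 ± 1.36). Ribosomal protein genes have many processed copies in the genome, so their counts are uncertain. Of these genes 16 were new, and 3 (RPS3, RPL5 and RPLP0) persisted. Of the 69 new genes, 27 (39.1%) were in the lists of the cytosolic ribosome, translation factors, nucleolus, mitochondrial ribosome or nuclear-encoded respiratory chain, which hold 3.15% of the nuclear genes tested and 3 of the 695 lost genes.

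Of 50 translation factors tested, 12 rose and 3 fell, with a median change of 1.17, against 28 higher and 1 lower under median ratio scaling. EEF1B2, which reloads elongation factor 1A with GTP, had 3.00, 1.72 and 0.883 FPKM at 1-cell and 370, 169 and 219 FPKM at 8-cell stage (6.53 ± 1.23, limma adjusted p = 0.00156), but overlaps NDUFS1 on the other strand. EIF1AD, a gene related to initiation factor 1A that overlaps BANF1, was carried by blastomere 1-2, with 279 FPKM against 0.898 and 0 FPKM in its sisters (6.06 ± 0.96). The 3 that fell were EIF5B, EIF4E3 and EIF4ENIF1, which binds eIF4E and stores it away. EIF4ENIF1 had 48.1, 24.2 and 68.9 FPKM and then at most 0.16 FPKM (-5.33 ± 1.69, limma adjusted p = 0.042). Of 48 nucleolar and ribosome assembly genes, 6 rose and 1 fell (median 0.66). The rRNA methylase FBL (fibrillarin) had at most 0.0642 FPKM and then 36.5, 137 and 96.1 FPKM (6.45 ± 1.85). RSL24D1, of large subunit assembly, had at most 0.807 FPKM and then 5.99, 225 and 13.7 FPKM (6.06 ± 1.49), and UTP11, of small subunit assembly, fell from 47.95, 85.4 and 68.6 FPKM to at most 1.01 FPKM (-5.56 ± 1.82).

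Of 13 mRNAs of the mitochondrial genome, 9 rose and none fell, with a median of 3.19, and in each of the 9 all blastomeres were above all 1-cell embryos. COX2, a subunit of complex IV, had 535, 554 and 519 FPKM at 1-cell and 7308, 7635 and 12381 FPKM at 8-cell stage (4.09 ± 0.77, limma adjusted p = 0.00155). ND4, a subunit of complex I that overlaps ND4L, had 169, 173 and 148 FPKM and then 1432, 1941 and 4196 FPKM (3.94 ± 0.70). COX1 and ND6 were higher in the blastomeres by 1.90 and 2.81 log2 units, which did not pass the test (limma adjusted p = 0.126 and 0.0851). Of 48 nuclear-encoded subunits of the respiratory chain, 14 rose and none fell (median 1.28). COX7A2 had 0, 0 and 0.0598 FPKM and then 96.8, 59.2 and 40.8 FPKM (6.03 ± 1.47, limma adjusted p = 0.0101). COX5A, of the same complex, was uneven, with 398, 13.5 and 0.763 FPKM in the sisters after 0.522 to 3.08 FPKM at 1-cell (5.99 ± 0.92), and UQCRQ, of complex III, overlaps GDF9 and had 0, 25.8 and 93.2 FPKM (4.64 ± 1.19). Of 49 mitochondrial ribosomal proteins, 10 rose and 1 fell (median 0.17). MRPL51 had at most 0.0557 FPKM and then 52.8, 105 and 89.4 FPKM (6.36 ± 1.01), and MRPL49, which overlaps SYVN1 on the other strand, had at most 0.156 FPKM and then 21.8, 47.7 and 36.6 FPKM (5.03 ± 1.31). Since mitochondrial transcripts took a larger share of the FPKM at 8-cell stage, nuclear genes were also rescaled among themselves, which gave 494 genes up and 517 down with 37 rises in the cytosolic ribosome and 12 in the respiratory chain list.

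**Figure D3:**
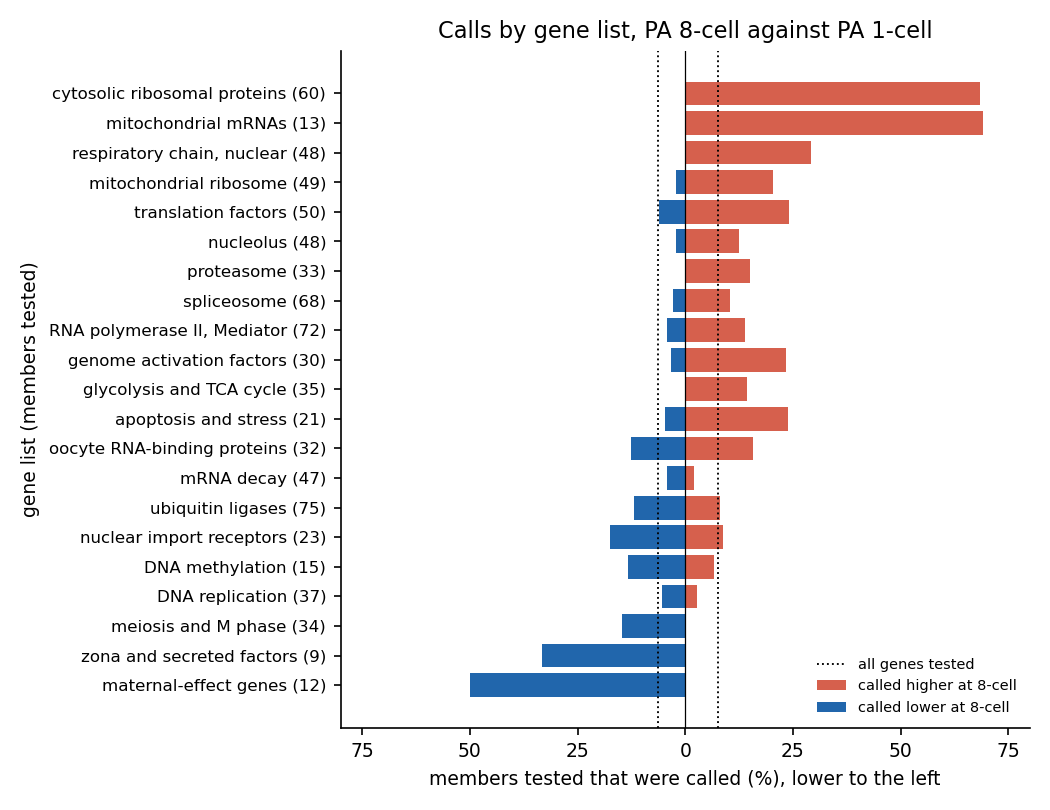
Members of each gene list that were called higher (red, to the right) or lower (blue, to the left) at PA 8-cell than at PA 1-cell stage, in percent of the members tested, whose number is given in brackets. Dotted lines mark the shares over all genes tested, 7.58% and 6.21%, and the longest bars are those of the mitochondrial mRNAs (9 of 13) and the cytosolic ribosome (41 of 60) to the right and of the maternal-effect genes (6 of 12) to the left, of which 2 were called lower and 1 higher under median ratio scaling.

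Of 12 maternal-effect genes tested, among them those of the subcortical maternal complex, 6 fell and none rose (median -4.17), and 7 were lost. Under median ratio scaling 2 were called lower and 1 higher (median -2.72). NLRP9 had 99.1, 130 and 103 FPKM at 1-cell and 0.331, 0.592 and 0.05 FPKM at 8-cell stage (-6.39 ± 0.65, limma adjusted p = 4.05e-06). UCHL1, a deubiquitinase, had 98.4, 92.8 and 101 FPKM and then at most 0.1 FPKM (-6.55 ± 0.96), and ZAR1L had 34.9, 46.2 and 26.7 FPKM and then at most 0.0602 FPKM (-5.12 ± 1.28). NLRP13 also fell, from 66.4, 44.5 and 21.8 FPKM to at most 0.156 FPKM (-5.28 ± 1.53). Of 9 genes of the zona pellucida and secreted oocyte factors, 3 fell and none rose (median -2.21), against 3 lower and 1 higher under median ratio scaling. BMP15, a growth factor of the oocyte, had 141, 174 and 108 FPKM and then 0.22, 0.527 and 12.7 FPKM (-4.67 ± 0.68, limma adjusted p = 0.000171). It thus stayed above 5 FPKM in blastomere 1-4 alone. GDF9, its partner, had 24.5, 31.1 and 26.6 FPKM and then 0.0402, 4.19 and 33.4 FPKM, with overlap and no call. The zona gene ZP2 had 36.9, 7.59 and 6.73 FPKM and then 0, 74.1 and 13.4 FPKM. Its stages overlapped, and its change was positive (1.15) and not called. Of 34 regulators of meiotic exit and M phase, 5 fell and none rose, with a median of -0.70. Under median ratio scaling this list turned, with 12 called higher, 1 lower and a median of 0.62. WEE2, which keeps the oocyte arrested, had 191, 325 and 246 FPKM and then 4.56, 1.15 and 18.6 FPKM (-4.78 ± 0.69, limma adjusted p = 0.000154). FBXO43 (also known as EMI2, of metaphase arrest) had 42.2, 86.3 and 64.1 FPKM and then at most 0.11 FPKM (-5.88 ± 0.97). The arrest kinase MOS had 27.5, 26.0 and 39.5 FPKM and then at most 0.157 FPKM (-4.89 ± 1.41), and the phosphatase CDC25C had 39.3, 17.7 and 19.04 FPKM and then at most 0.28 FPKM (-4.48 ± 1.01).

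RNA-binding proteins of the oocyte were divided, with 5 up and 4 down among 32 tested, and a median of -0.21. Under median ratio scaling 13 were called higher and none lower (median 0.91). IGF2BP3, which protects maternal mRNA, had 1125, 841 and 707 FPKM and then 66.4, 86.2 and 0.149 FPKM (-4.08 ± 0.53, limma adjusted p = 5.22e-05), but its value was 0.40 under median ratio scaling. Its relative IGF2BP1 was at 0 in all 1-cell embryos and at 0.0323, 28.9 and 68.1 FPKM in the blastomeres (5.06 ± 0.47). ZFP36L2, which speeds mRNA decay, was carried by blastomere 1-1 (78.5, 0.982 and 0 FPKM after at most 0.269 FPKM). Of 47 genes of deadenylation, decapping and decay, 1 rose and 2 fell (median -0.05), against 13 higher and 1 lower under median ratio scaling (median 0.70). BTG4, an adaptor of the deadenylase that removes maternal mRNA, had 490, 522 and 602 FPKM and then 1.10, 8.09 and 20.1 FPKM (-5.64 ± 0.63, limma adjusted p = 9.43e-06). UPF1, the helicase of nonsense-mediated decay, had 42.9, 18.6 and 16.7 FPKM and then at most 0.0393 FPKM (-4.60 ± 0.85), and DIS3L, an exosome nuclease that overlaps TIPIN, was at 147 FPKM in blastomere 1-1 and at most at 0.0683 FPKM in its sisters.

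Among 30 factors of genome activation and pluripotency, 7 rose and 1 fell, with a median of 0. TFAP2C, a trophectoderm factor, had at most 0.922 FPKM at 1-cell and 15.8, 5.67 and 61.9 FPKM at 8-cell stage (4.47 ± 1.31, limma adjusted p = 0.029). DPPA2, an activator of early embryonic genes, had at most 0.239 FPKM and then 73.1, 0.0772 and 18.1 FPKM, and NR5A2, a nuclear receptor of genome activation, had 83.0 FPKM in blastomere 1-2 and at most 0.0635 FPKM in its sisters, so these rises rest on some of the sisters. KLF17, another such factor, was at 1.51, 125 and 0.0579 FPKM and KLF4 at 67.6, 31.9 and 169 FPKM, and neither passed the test (limma adjusted p = 0.0651 and 0.0773). SALL4 persisted, with 72.5, 64.5 and 92.7 FPKM and then 107, 224 and 78.7 FPKM. OTX2, a homeobox factor held at 33.3 to 37.9 FPKM at 1-cell, was at 34.7 FPKM in blastomere 1-4 and at most at 0.193 FPKM in its sisters.

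Of 15 genes of DNA methylation and demethylation, 1 rose and 2 fell (median -0.61), the latter DNMT1 and UHRF2, a partner that reads methylated DNA, with 507, 494 and 307 FPKM and then 0.997, 4.07 and 158 FPKM (-2.95 ± 0.75, limma adjusted p = 0.013). The 1 that rose, GADD45B, a stress gene also tied to demethylation, was at 53.7 FPKM in blastomere 1-4 and at 0 in the other 5 libraries. Of 17 enzymes of H3K4 methylation, 1 fell and none rose (median -1.19): ASH2L, a core subunit that overlaps STAR, had 25.2, 16.4 and 20.3 FPKM and then at most 0.695 FPKM (-4.07 ± 1.14). KDM5A, an H3K4 demethylase, was at 135 FPKM in blastomere 1-2 and at most at 0.135 FPKM in its sisters, without a call. Of 18 Polycomb and H3K9 enzymes, 1 rose and 2 fell (median -0.68), and the 2 were RNF2, the catalytic subunit of Polycomb complex 1 (40.2, 44.8 and 47.2 FPKM, then at most 0.135 FPKM), and RBBP7, a histone chaperone that overlaps TXLNG (45.9, 58.5 and 35.3 FPKM, then at most 1.33 FPKM). BMI1, also of Polycomb complex 1, was called higher from 64.3 FPKM in blastomere 1-1 alone. Of 19 acetyltransferases and deacetylases, 2 fell and none rose (median -0.63), and of 14 histone genes, 2 rose and 1 fell (median -0.11). The oocyte linker histone H1FOO had 330, 517 and 259 FPKM and then 0.497, 2.31 and 52.2 FPKM (-4.20 ± 0.62, limma adjusted p = 0.000171), while the variants H3F3A (133, 71.9 and 25.5 FPKM after at most 4.43 FPKM) and H2AFZ (65.2, 2.92 and 275 FPKM after at most 4.78 FPKM) rose.

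Of 72 genes of RNA polymerase II and Mediator 10 rose and 3 fell (median -0.11), against 22 higher and none lower under median ratio scaling (median 0.54), and of 68 spliceosome and hnRNP genes 7 rose and 2 fell (median 0.76). Of 33 proteasome subunits 5 rose and none fell (median 0.84), and PSMB7, a catalytic subunit, had 249, 76.6 and 123 FPKM after 0.212 to 6.11 FPKM (5.81 ± 1.86). Of 75 genes of ubiquitin conjugation 6 rose and 9 fell (median -0.34), against 28 higher and 3 lower under median ratio scaling (median 0.64), of 35 chaperones 3 rose and 2 fell (median -0.61), against 12 higher and none lower (median 2.12), and of 23 nuclear import receptors 2 rose and 4 fell (median 1.07), against 8 higher and 2 lower. Besides KPNA7, the importins KPNA2 (32.6, 35.2 and 34.2 FPKM, then at most 0.297 FPKM) and IPO8 (25.1, 28.6 and 23.1 FPKM, then at most 0.196 FPKM) fell, while IPO5, which imports ribosomal proteins, rose from at most 3.00 FPKM to 141, 57.7 and 65.8 FPKM (4.92 ± 1.58, limma adjusted p = 0.0446). Of 37 replication genes 1 rose and 2 fell (median -1.18), and PCNA, the polymerase clamp, which overlaps CDS2, had 1809, 1802 and 1984 FPKM and then 122, 78.8 and 295 FPKM, a change of -3.49 ± 1.21 that missed the threshold (limma adjusted p = 0.0623). Of 35 genes of glycolysis and the TCA cycle 5 rose and none fell (median -0.19, and 0.24 under median ratio scaling), of 15 antioxidant genes 3 rose and none fell (median 0.12, and -0.16 when nuclear genes were rescaled), and of 21 genes of apoptosis and stress 5 rose and 1 fell (median 0.41). MCL1, which keeps cells alive, had at most 0.0697 FPKM and then 137, 55.2 and 19.95 FPKM (6.10 ± 1.40; it overlaps ENSA), while BCL2L10, a relative of it, had 19.8, 25.04 and 28.1 FPKM and then at most 0.0948 FPKM (-4.58 ± 1.08). Of 21 genes of adhesion and compaction 2 fell and none rose (median -0.79). Under median ratio scaling the lists of DNA methylation (4 higher, none lower), H3K4 methylation (3, none), Polycomb and H3K9 (5, none), acetylation (3, none), histones (4, 1), replication (5, 1), spliceosome (25, 1), adhesion (4, 1) and genome activation factors (12, none) likewise had more genes called higher than lower. Of 8 imprinted genes reported as paternally expressed in mammals and tested here, limma called none (median -0.83), and 2 were lower at an unadjusted p under 0.05. Of 3 maternally expressed ones limma called none, and none had an unadjusted p under 0.05. PLAGL1 had 6.13, 4.09 and 12.7 FPKM at 1-cell and at most 0.0274 FPKM at 8-cell stage, and PEG10 had 0.553 to 4.77 FPKM and then 12.002 FPKM in blastomere 1-4 alone. Of 27 genes that the study itself drew or named, chosen on these libraries and so no independent evidence, 5 rose and 9 fell (median -0.82), against 15 higher and 3 lower under median ratio scaling (median 3.38). FAM151B had the largest fall of them, from 1335, 890 and 1215 FPKM to 1.72, 2.73 and 0 FPKM (-8.83 ± 1.32, limma adjusted p = 0.000199).

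Sharing of rises and falls between the 3 sisters depends on how their values were joined. FPKM of the sisters were averaged before the log was taken, so 1 high blastomere can carry a rise and can hide a fall. The numbers below therefore cannot compare rises with falls. With log2 values averaged instead, 416 genes rose and 876 fell. All 504 genes called lower were below every 1-cell embryo in all 3 blastomeres, against 41.4% of all genes tested. Of the 615 called higher, 229 were above every 1-cell embryo in 3 blastomeres (37.2%, against 4.84% of all genes tested), 199 in 2 and 187 in 1. The 187 were carried by blastomere 1-1 in 57 cases, by 1-2 in 60 and by 1-4 in 70. When each blastomere was left out in turn, 463 of the 504 falls and 187 of the 615 rises were called in all 3 fits, and of the 187 rises carried by 1 blastomere none was. Of 674 genes under 1 FPKM in all 1-cell embryos that reached 5 FPKM in at least 1 blastomere, 500 did so in 1 sister, 105 in 2 and 69 in 3. Among the 1754 genes held at 1-cell, 835 were at 5 FPKM or more in no sister, 478 in 1, 235 in 2 and 206 in 3.

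The widest ranges between sisters among called genes were in TNFRSF12A, a receptor of the tumour necrosis factor family, with 704 FPKM in blastomere 1-4 and 0 in the other 5 libraries. DNAJB9, a chaperone of the endoplasmic reticulum that overlaps THAP5, had 462 FPKM in 1-2, against 0.147 and 0 FPKM in its sisters and 0.558 to 10.7 FPKM at 1-cell. GPANK1 had 428 FPKM in 1-1 and at most 0.17 FPKM in its sisters, and DMTF1, a transcription factor, had 393 FPKM in 1-1 and at most 0.0917 FPKM. GPANK1 overlaps CSNK2B and DMTF1 overlaps TMEM243 on the other strand. Their changes (7.88 ± 1.70 for TNFRSF12A, 5.24 ± 1.59 for DNAJB9, 6.08 ± 1.90 for GPANK1 and 6.24 ± 1.44 for DMTF1) rest on 1 cell each, and without that cell DNAJB9, GPANK1 and DMTF1 took values of -1.93, -0.97 and -0.74.

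Levels at the stages between were read for the same classes. In the 6 cells of PA 2-cell embryos (27 h), on average 66.5% of the lost genes were still at 5 FPKM or more, and 33.0% in the 9 cells of PA 4-cell embryos (48 h). PA 4-cell blastomeres 1-4 and 2-1 nearly repeated 2 PA 2-cell libraries (r = 0.999 in both) and held 72.1% and 72.9% of the lost genes, against 14.0% to 27.1% in the other 7 cells. Without them the average at 4-cell stage was 21.7%. Persisting nuclear genes were at 5 FPKM or more in 87.4% of cases at 2-cell and 67.3% at 4-cell stage (60.7% without the 2 cells), although they were chosen as present at both ends. New genes were at this level in 3.86% at 2-cell and 22.7% at 4-cell stage (27.3% without the 2 cells), and 48 of 69 reached it in at least 1 cell of the 4-cell stage. Single genes, chosen after their values were seen, are given at the 4-cell stage for the other 7 cells. NANOG had a mean of 1.502 FPKM at 2-cell stage and 4.71 to 264 FPKM (median 134 FPKM) at 4-cell stage, a range that holds its 8-cell values. PABPC5 was at most at 0.891 FPKM and SLC34A2 at most at 0.171 FPKM at 4-cell stage, so both were under 1 FPKM in these cells. RPS16 had 1.22 to 283 FPKM and TPT1 0.351 to 67.4 FPKM at 4-cell stage, below all 8-cell blastomeres. KPNA7 still had a mean of 294 FPKM at 2-cell and 137 to 952 FPKM at 4-cell stage, far above its 8-cell values, while TRIM36 had a mean of 95.2 FPKM and then 0.565 to 29.7 FPKM.

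**Figure D4:**
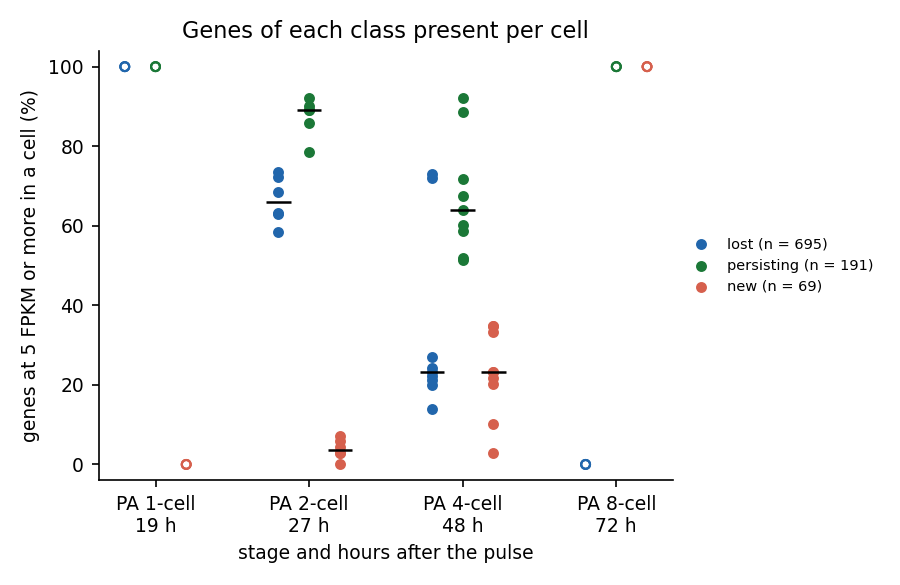
Share of the lost (blue, n = 695), persisting nuclear (green, n = 191) and new genes (red, n = 69) at 5 FPKM or more in each PA cell, by stage, with a bar at the median over cells. Hollow symbols at 1- and 8-cell stage are fixed at 0 or 100% by the class and carry no information, and the 2 high blue points at the 4-cell stage (72.1% and 72.9%) are the blastomeres that nearly repeat 2-cell libraries.

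The same interval was read in fertilized embryos, where 489 genes (6.03%) rose and 668 (8.23%) fell from 1- to 8-cell stage, and IVF and PA share no library. The changes of the 8116 genes had a Pearson's r of 0.607 and a Spearman's rho of 0.573 between IVF and PA, as a description across genes, which are not independent and share gene length and 1 preparation. Of the genes called higher in PA, 233 were called higher in IVF (37.9% of the PA and 47.6% of the IVF calls), and 75.4% had a positive change in IVF, against 29.6% of all genes tested. Of those called lower, 312 were called lower in IVF (61.9% and 46.7%), and 94.0% had a negative change there, against 70.3%. By the same class rules, 352 genes were lost in both (50.6% of 695 in PA and 37.9% of 929 in IVF), 112 persisted in both (54.4% of 206 and 50% of 224) and 28 were new in both (40.6% of 69 and 47.5% of 59). In IVF 46 of the 60 cytosolic ribosomal proteins and 14 of the 48 nuclear-encoded respiratory subunits rose, against 41 and 14 in PA.

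The change differed between PA and IVF for 123 genes (1.52%) by limma's test of the difference, with 81 (0.998%) higher and 42 (0.517%) lower in PA, and 1017 at an unadjusted p under 0.05. With 1 embryo per method at 8-cell stage, a difference between these embryos and one between methods cannot be told apart. From the genes of the Y chromosome, the study called the IVF 8-cell embryo male and every PA embryo female. A difference of sex therefore cannot be told apart from these either. In 34 of the 123, all PA 8-cell blastomeres lay on the same side of all IVF 8-cell blastomeres. The share over all genes tested was not counted, so this number cannot be read as more than usual. PABPC5 had the largest difference (8.41 ± 0.78, limma adjusted p = 1.23e-05): it was at 0 in all 3 IVF blastomeres, and at 46.9 FPKM or more in the PA ones. SPR, an enzyme of tetrahydrobiopterin synthesis chosen after its values were seen, was also new in PA, with 9.76, 8.25 and 15.5 FPKM, against at most 0.0239 FPKM in the IVF blastomeres (difference 3.81 ± 0.84). DNAJC2, a chaperone at the ribosome, had 292, 341 and 0.0314 FPKM in the PA and at most 0.291 FPKM in the IVF blastomeres, after 14.3, 3.95 and 14.9 FPKM in PA 1-cell embryos (8.15 ± 1.95). PNMA1 was at 158 FPKM in PA blastomere 1-4 and at 0 in the other PA and all IVF blastomeres (8.31 ± 1.36), so that it rests on 1 cell.

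Of the genes in the persisting class of PA, 4 were under 1 FPKM in every IVF 8-cell blastomere, and 3 of them passed the test of the difference. SMAD5, which carries BMP signals, had 143, 131 and 236 FPKM at PA 1-cell and 7.92, 145 and 117 FPKM at PA 8-cell stage, but 0.494, 0.327 and 0.625 FPKM in the IVF blastomeres (difference 6.17 ± 0.99, limma adjusted p = 0.00283). BZW1, a regulator of translation initiation, had 23.5, 19.3 and 23.0 FPKM and then 93.0, 93.0 and 93.3 FPKM in PA, against at most 0.256 FPKM in the IVF blastomeres (6.97 ± 1.28, limma adjusted p = 0.00689), and KTN1 had at most 0.581 FPKM there (4.37 ± 1.08). MIER3, a corepressor subunit that went the same way (at most 0.268 FPKM in IVF), did not pass the test (5.85 ± 1.88, limma adjusted p = 0.132). BZW1 and KTN1 were chosen after their values were seen. SMAD5 and MIER3, like PABPC5 and UBE4A, had been picked by the study from these same libraries. It reported them as lower in IVF than in PA embryos at the 2-, 4- and 8-cell stages. None of these genes is therefore independent evidence.

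In the other direction, 8 genes lost in PA were at 5 FPKM or more in every IVF 8-cell blastomere. These were THUMPD1, UPF1, CERS1, MIER1, HELB, SPRED1, GRPEL1 and C1orf112, of which UPF1 and CERS1 passed the test of the difference. UPF1 had at most 0.0393 FPKM in the PA and 81.1, 26.8 and 24.03 FPKM in the IVF blastomeres (-6.96 ± 1.21, limma adjusted p = 0.00465). CERS1, a ceramide synthase, overlaps UPF1 on the other strand and followed it in every library (-6.99 ± 1.25), so their reads cannot be told apart. ZP4 was at 195 FPKM in 1 IVF blastomere and at 0.314 and 0.355 FPKM in the others (-6.92 ± 1.61, limma adjusted p = 0.0351), a difference carried by 1 cell. QARS, the glutaminyl-tRNA synthetase, was at 0 in all PA 8-cell blastomeres and at 327, 45.3 and 21.8 FPKM in the IVF ones (-7.98 ± 1.32, limma adjusted p = 0.00317), and overlaps QRICH1 on the same strand. ASNA1, which inserts tail-anchored proteins, was new in IVF and at most at 0.031 FPKM in the PA blastomeres (-5.70 ± 0.63). BSG (basigin, the partner of lactate transporters) had 0.193 to 0.292 FPKM in the PA and 127, 115 and 59.7 FPKM in the IVF blastomeres (-7.98 ± 1.64, limma adjusted p = 0.0155).

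**Figure D5:**
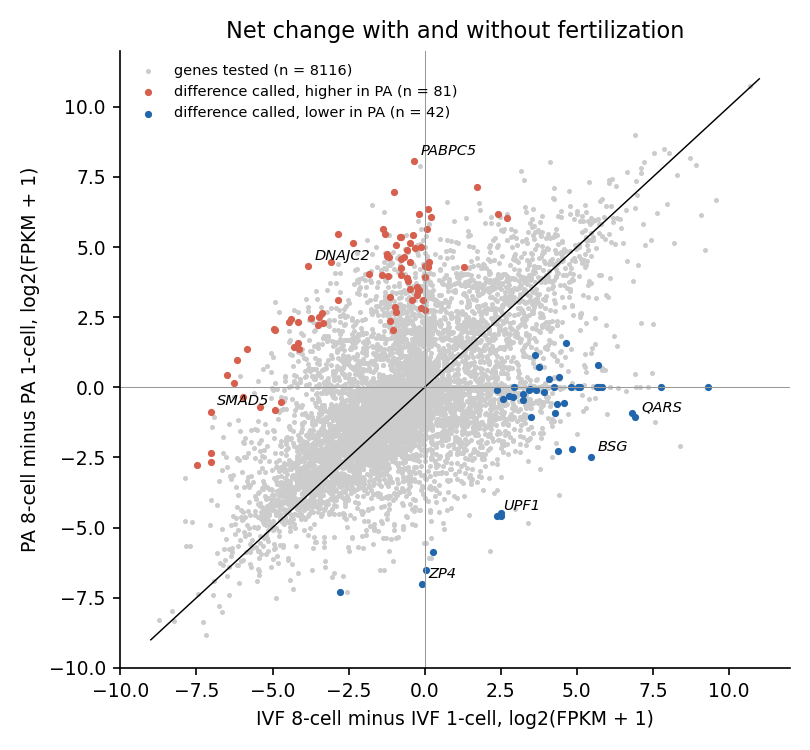
Change of each of the 8116 genes tested from 1- to 8-cell stage, as a difference of log2(FPKM + 1), in IVF (horizontal axis) and PA (vertical axis), with the line of equal change. The 123 genes whose changes differed by the test lie off the line, 81 higher in PA (red) and 42 lower (blue), and each 8-cell value is 1 embryo.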

How the data were processed

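By the study's methods, single zygotes and blastomeres were lysed and their transcripts, with or without a poly(A) tail, were amplified (Ansuper-seq) and sequenced on HiSeq X-Ten. The sample labels give another preparation (Trizol extraction of oocytes and a TruSeq kit), so which RNA the FPKM cover is uncertain. Per the study's methods and the submitters' processing notes, reads were aligned to Sscrofa 11.1 with HISAT2, and the authors deposited FPKM per gene, normalized for length and mapped reads. From these, blastomeres of an embryo were averaged, log2(FPKM + 1) was taken, and the 8 groups (20 embryos) were fitted with limma 3.58.1 (R 4.3.3, mean-variance trend, 12 residual degrees of freedom). Genes with at least 1 FPKM in at least 3 of the 42 cells were tested. A gene was called at a Benjamini-Hochberg adjusted p under 0.05 and a fold change of at least 2. The script was tested on simulated data. Reads on genes per library were recovered from the FPKM, whose low values are whole multiples of what 1 read is worth.

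Named were the 8 called lost genes with the largest falls, the 8 called new genes with the largest rises and the 8 nuclear genes with the highest lowest value, each among genes with a symbol, up to 4 called members of each list with its defining members, the genes the study named, the 5 largest differences between PA and IVF, and 4 genes with the widest range between sisters. A few genes that the rule names are not reported here. The members and lists were chosen with earlier results of these data known. Symbols came from the file for 12529 genes and from a name table for 839. Promoters and transcripts came from RefSeq (annotation release 106, 12371 genes matched). Alternatives were other pseudocounts, filters, scalings, units and samples. Tables and figures were made with Python 3.11.15, pandas 2.3.3, numpy 2.4.6 and matplotlib 3.10.9. The aligner's version and the strandedness are not given in the sources used here.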

Additional observations from a re-analysis of the deposited data

Results flagged for a closer look

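In 16 of the genes named here or above, the change from 1- to 8-cell stage differed between PA and IVF by limma's test of the difference (adjusted p under 0.05), with 1 embryo per method at 8-cell stage. By the study's calls these embryos also differed in sex. Higher in PA were PABPC5 (8.41 log2 units), PNMA1 (8.31), DNAJC2 (8.15), BZW1 (6.97), SMAD5 (6.17), MRPS33 (5.98), PRIM1 (5.96), UBE4A (5.74), KTN1 (4.37) and SPR (3.81). Lower in PA were BSG (-7.98), QARS (-7.98), CERS1 (-6.99), UPF1 (-6.96), ZP4 (-6.92) and ASNA1 (-5.70). MRPS33, a protein of the mitochondrial ribosome, was at 119 FPKM in PA blastomere 1-4 and at most at 0.0793 FPKM in its sisters. PRIM1, the small subunit of primase, was at 58.2 FPKM in blastomere 1-1 and at most at 0.0217 FPKM in its sisters. UBE4A, a ubiquitin chain factor, was at 17.3, 188 and 0 FPKM in the PA blastomeres after 18.4 to 25.3 FPKM at 1-cell. The differences of MRPS33, PRIM1 and PNMA1 thus rest on 1 cell each.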

How the results depend on the processing

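The 615 rises became 1727 under median ratio scaling, 392 with a pseudocount of 0.1, 239 with single cells as units, and 440 to 584 without 1 library. The 504 falls became 876 with mean log2 values, 112 under median ratio scaling, 853 and 284 with pseudocounts of 0.1 and 5, and 344 to 676 without 1 library. The 81 differences higher in PA became 19 with a filter of 5 FPKM, 334 with none, 16 with mean log2 values, 529 under median ratio scaling, 46 with nuclear genes rescaled, 464 with only the groups compared, 45 and 208 with pseudocounts of 0.1 and 5, 7 with single cells, and 47 to 108 without 1 library. The 42 lower ones became 13, 320, 24, 426, 314, 24, 162 and 14 under a filter of 5 FPKM, no filter, mean log2 values, median ratios, only the groups compared, pseudocounts of 0.1 and 5, and single cells, and 32 to 94 without 1 library. PA 4-cell blastomeres 1-4 and 2-1, which nearly repeat 2-cell libraries, stayed in the main fit. Without them 564 genes rose and 399 fell, and 55 differences were higher and 39 lower in PA. With classes cut at 10 and 0.5 FPKM, 1069 genes were held, 330 lost and 41 new, and with 2 and 1 FPKM 1171 were lost. Without 1 library, 800 to 962 were lost, 214 to 303 persisted and 73 to 115 were new. Genes at 1 FPKM or more averaged 4874 at 1-cell and 1826 at 8-cell stage. Without 1 library in turn, changes that rest on blastomere 1-1 turned sign (lowest and highest values: BMI1 -0.14 and 4.90, DIS3L -1.09 and 5.09, DMTF1 -0.74 and 6.82, GPANK1 -0.97 and 6.69, PSMD7 -0.16 and 4.60, PRIM1 -1.24 and 3.66), as did DNAJB9 (-1.93 and 5.997) without 1-2 and DDIT3 (-0.57 and 4.31), GCLM (-0.73 and 4.17), MRPS33 (-0.54 and 5.32) and PNMA1 (-0.29 and 6.03) without 1-4. Under median ratio scaling IGF2BP3 (0.40), TNPO1 (0.42), EIF5B (0.22), SRPK1 (0.0051), KTN1 (1.81), SEPTIN11 (3.38) and SMAD5 (2.71) turned. That scaling used 1064 genes above 0 in all cells, however low. Its factors were 0.104, 0.138 and 1.89 in blastomeres 1-1, 1-2 and 1-4, and 2.57 to 2.88 in the PA 1-cell embryos. For the other changes the cause was not tested. No paired analysis was possible because the 8-cell libraries are blastomeres of 1 embryo and the 1-cell libraries are separate embryos, so shared numbers pair nothing. Counting error sets the floor for genes of a few reads, and 1 embryo at 8-cell stage limits all comparisons.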
